A study of Homo sapiens with 12 samples.

Results

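The DNA replication and G1/S genes described here are 52 named genes whose products license replication origins, unwind and copy DNA, supply nucleotides and histones, or switch on S phase transcription. They were taken by symbol from a whole-transcript array table of MDA-MB-231, a human breast cancer cell line established from a pleural effusion. All 52 were on the array, each with exactly 1 probe set that names no other gene, and all 52 were among the 20572 genes that passed a filter on low values. The cells fell into 4 groups of 3 arrays, all harvested at 24 h. One group received TNFα at 40 ng/ml together with apigenin at 40 µM, another apigenin alone at 40 µM, a further one TNFα alone at 40 ng/ml, and the controls were untreated. TNFα is an inflammatory cytokine, and apigenin is a plant flavone. The labels state that the agents were prepared in a buffered salt solution (HBSS). The sources used here do not say whether the controls received that solution, nor whether each of the 3 samples in a group was a culture of its own. The p-values therefore rest on sample-to-sample spread that could be purely technical.

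In G1, the origin recognition complex with CDC6 and CDT1 loads the MCM2-7 helicase onto DNA. At the start of S phase, CDC45, the GINS complex and MCM10 turn that helicase on, and the polymerases, the PCNA clamp and its loaders copy the strands. Many of these genes are transcribed by E2F factors once cyclin-dependent kinases have inactivated the retinoblastoma protein, and after licensing CDT1 is destroyed or blocked so that no origin fires again in the same cycle.

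The values are log2 expression levels from 1 deposited table. Levels of different genes come from different probes and were not set against each other. A gene is called higher or lower when its Benjamini-Hochberg adjusted p from limma, over all 20572 genes, lies below 0.05. Correlations between arrays were 0.983 to 0.991 within groups and 0.966 to 0.99 between groups, and no 2 arrays were identical. Principal component 1 (38.3% of variance) set the 6 arrays with apigenin apart from the other 6. Component 2 (18.8%) put the sample numbered 3 lowest in each of the 4 groups. VIM, CD44, AXL, CAV1 and PLAUR, which this line expresses at high level, read 6.43 to 10.19. Markers of leukocytes, fibroblasts and endothelium read between 1.19 and 2.87 on the 12 arrays. The median of 153 small nucleolar RNA genes, a class whose level on such arrays can follow RNA handling, was 5.83, 5.79 and 5.9 with both agents, 6.32, 5.73 and 5.77 with apigenin, 5.08, 5.82 and 4.67 with TNFα, and 5.48, 5.4 and 5.33 in controls. It was thus higher on every array with apigenin, alone or with TNFα, than on every control array. A fit that holds it as a covariate therefore cannot fully separate it from the treatment. Its part in the results was not tested beyond that fit. In bulk RNA, fewer cells expressing a gene and less of its RNA per cell cannot be told apart.

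Start-site sequences are shown because many of these genes are textbook targets of E2F factors. A further reason is that 11 of the 52 were called the same way when apigenin was added without TNFα and with it. RefSeq (GRCh38.p14) promoter windows, 250 bases before to 50 after the start, were at hand for 45 of the 52 genes. MCM4, MCM5, GINS4, POLD3, RPA2, RPA3 and E2F8 had no entry. Each stretch below runs 5′ to 3′ on the strand of its gene, from 60 bases before the start to 40 after it, and capitals mark matches to 4 E2F octamers (TTTCCCGC, TTTGGCGC, TTTGCCGC and TTTCGCGC) searched on both strands. The 6 genes that were higher in both apigenin comparisons come first.
ORC6, chr16:46689599-46689698, plus strand: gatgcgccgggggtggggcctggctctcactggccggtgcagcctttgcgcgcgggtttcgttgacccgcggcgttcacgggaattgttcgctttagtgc
FEN1, chr11:61792851-61792950, plus strand: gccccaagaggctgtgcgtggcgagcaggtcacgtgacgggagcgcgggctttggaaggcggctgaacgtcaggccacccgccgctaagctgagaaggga
DTL, chr1:212035688-212035787, plus strand: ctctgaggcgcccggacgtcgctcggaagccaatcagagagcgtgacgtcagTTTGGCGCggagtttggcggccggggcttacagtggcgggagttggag
SLBP, chr4:1712280-1712379, minus strand: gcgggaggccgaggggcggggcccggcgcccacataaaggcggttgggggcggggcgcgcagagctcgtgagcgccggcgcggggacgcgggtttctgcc
CDT1, chr16:88803729-88803828, plus strand: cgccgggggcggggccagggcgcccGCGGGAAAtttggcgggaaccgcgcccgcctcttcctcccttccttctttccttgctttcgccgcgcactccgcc
MCM10, chr10:13161498-13161597, plus strand: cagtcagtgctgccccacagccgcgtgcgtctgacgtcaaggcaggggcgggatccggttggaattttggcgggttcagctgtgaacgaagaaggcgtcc
Of the 5 genes that were lower in both apigenin comparisons, the 4 with an entry follow (for RRM2, from the downstream one of its 2 windows).
POLE2, chr14:49688175-49688274, minus strand: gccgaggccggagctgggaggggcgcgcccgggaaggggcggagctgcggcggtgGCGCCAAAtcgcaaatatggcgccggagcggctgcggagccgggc
MCM3, chr6:52284703-52284802, minus strand: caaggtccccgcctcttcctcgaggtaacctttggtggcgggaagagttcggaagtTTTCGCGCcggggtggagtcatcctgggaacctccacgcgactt
RRM2, chr2:10122679-10122778, plus strand: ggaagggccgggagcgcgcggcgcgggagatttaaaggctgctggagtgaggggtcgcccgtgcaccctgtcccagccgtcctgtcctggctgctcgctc
GINS1, chr20:25407613-25407712, plus strand: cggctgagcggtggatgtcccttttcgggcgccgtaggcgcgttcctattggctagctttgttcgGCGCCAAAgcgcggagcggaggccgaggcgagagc
MCM2, a helicase subunit that was called in none of the comparisons, is shown beside them.
MCM2, chr3:127598351-127598450, plus strand: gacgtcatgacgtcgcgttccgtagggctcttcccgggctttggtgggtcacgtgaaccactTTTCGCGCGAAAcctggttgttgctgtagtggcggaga

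An E2F octamer was found in 23 of the 57 windows of the member genes, or 40.4%. The share was 3.31% of all 35116 RefSeq windows of the same length and 4.02% of the 20531 windows of genes tested. Counting the start as base 1 and the base before it as -1, the match began at -35 in CDT1, -8 in DTL, -5 in POLE2 and 6 in GINS1. MCM3 carried one from -4 and another from -174, outside the stretch shown. In MCM2, matches on opposite strands overlapped, from bases 3 and 7. Among the genes that were higher in both apigenin comparisons 2 of 6 held an octamer, and among those that were lower 3 of 4 did, beside 17 of the 35 other members with an entry (48.6%), MCM2 among them. CCAAT, the box bound by NF-Y, was on either strand in 33 of the 57 windows (57.9%). It was in 34.6% of all windows and 34.3% of those of genes tested. TTTGAA, the core of the CHR element of many mitotic genes, was in 1 of 57 (1.75%). It was in 15.2% of all windows and 12.2% of those of genes tested. A match is a description of these windows, not evidence of binding.

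Apigenin alone split the replication genes. Of the 52, 7 were higher and 7 lower than in untreated cells, while the median over all 52 was 0.03 on the log2 scale and that over all genes tested was -0.02. The higher ones were ORC6, FEN1, DTL, SLBP, CDT1, MCM10 and RFC5, and the lower ones POLE2, MCM3, RRM2, PRIM1, GINS1, E2F8 and PRIM2. The 14 called genes make 26.9% of the members, where 11.4% of all genes tested were called (4.55% higher and 6.83% lower). After quantile normalization of the arrays the count was 22, with 8 higher and 14 lower, while the calls over all genes came to 14.9%, with 1062 higher and 2000 lower. The other 38 members were not called.

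With TNFα present, adding apigenin again moved members in both directions. Set against TNFα alone, cells given both agents had 7 members higher and 6 lower, 13 of the 52, against 10.1% of all genes tested (4.21% higher, 5.92% lower), and the median was 0.03 against -0.01 over all genes. Quantile normalization gave 6 higher and 8 lower, and over all genes 13.4% were then called, 990 higher and 1761 lower. These 2 apigenin comparisons share no array, but both take a gene's variance from 1 fit over all 12 arrays. Their calls are therefore not independent. In both comparisons 11 members were called in the same direction, and none in opposite directions. The higher ones were ORC6, FEN1, DTL, SLBP, CDT1 and MCM10, and the lower ones POLE2, MCM3, RRM2, GINS1 and E2F8. They are 78.6% of the 14 called without TNFα, 84.6% of the 13 called with it and 21.2% of the 52, where 6.74% of all genes tested were called the same way in both (2.75% higher, 4% lower). In sign, 44 of 52 members matched, and the matches over all genes were not counted. Across members the correlation of the 2 effects was 0.9 (n = 52 genes on the same 12 arrays), beside 0.76 over all 20572 genes, and genes are not independent replicates.

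**Figure D1:**
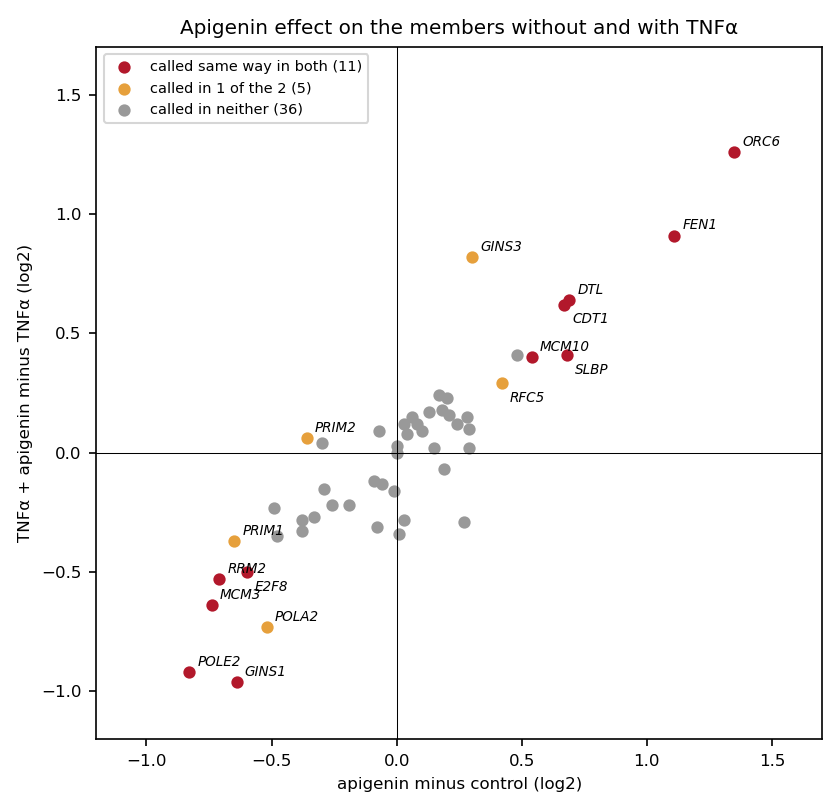
Each point is 1 of the 52 genes, with the log2 difference of apigenin minus control on the horizontal axis and of TNFα plus apigenin minus TNFα on the vertical axis. Points in red (11 genes) were called in both, those in orange (5) in 1 and those in grey (36) in neither; ORC6 and FEN1 lie farthest up on the diagonal, POLE2 and GINS1 farthest down.

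Against untreated cells, the cells given both agents had 9 members higher and 3 lower, 23.1% of the members where 12.5% of all genes tested were called (7.15% higher, 5.37% lower). This comparison shares arrays with each of the other 2. ORC6, FEN1, DTL, GINS3, MCM10, CDT1, SLBP, ORC1 and RFC5 were higher, and GINS1, POLE2 and MCM3 lower. After quantile normalization 8 members were higher and 12 lower. The calls over all genes shifted the same way, to 1300 higher and 2049 lower (16.3%), against 1471 higher and 1105 lower in the fit reported. Of these calls, that of CDT1 was lost without sample 1 or 2 of both agents or control sample 2 (adjusted p 0.0511 to 0.0553), and that of POLE2 without sample 1 or 2 of both agents or control sample 3 (0.0915 to 0.105). TNFα alone called none of the 52 by limma, where 0.997% of all genes tested were called (0.778% higher, 0.219% lower). An unadjusted limma p below 0.05 was reached by 3 members, or 5.77%, against 11.6% of all genes. They were POLA2 at 0.47, MCM10 at 0.35 and ORC4 at -0.27 on the log2 scale. Its effects ran from -0.29 in TK1 to 0.47 in POLA2. In sign 44 of 52 were positive, as were 11293 of all 20572 genes. The members' median was 0.1 beside 0.02 over all genes, and with quantile normalization the members' median was -0.01.

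Adding TNFα to apigenin called none of the 52 either, where 0.209% of all genes tested were called. GINS3, PRIM1, PRIM2 and RRM2 had an unadjusted limma p below 0.05 (7.69% of members, close to the 7.24% of all genes). The interaction, which asks whether the effect of apigenin differs with TNFα present, was called in none, where 0.0535% of all genes were (0.00972% higher, 0.0437% lower). There GINS3 (0.52), PRIM2 (0.42) and POLD2 (-0.56) had an unadjusted p below 0.05, each with an adjusted p of 0.999. They make 5.77% of the members, against 4.23% of all genes. So a gene called with TNFα and not without it, or the reverse, was not shown to respond differently.

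**Figure D2:**
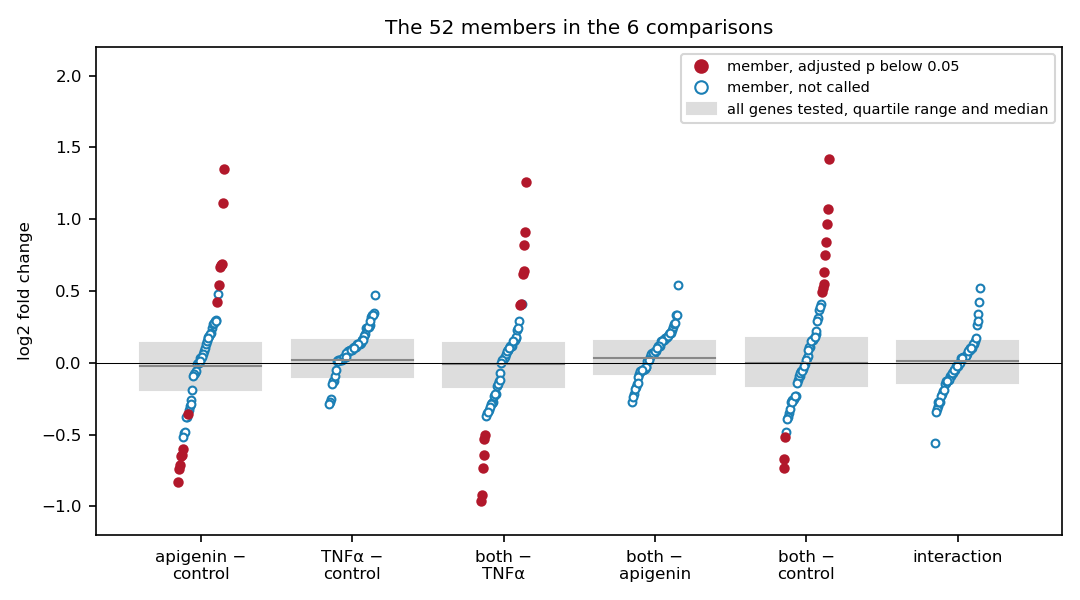
Log2 fold changes of the 52 genes in the 6 comparisons named on the horizontal axis (both stands for TNFα plus apigenin), with filled red points for genes called by limma and open blue points for the others. Grey boxes span the quartiles of all 20572 genes and the grey line their median; called genes appear above and below 0 in the 3 comparisons that add apigenin to cells without it, and there are none in the other 3.

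Among the licensing genes, ORC6, the smallest subunit of the origin recognition complex, had the largest change of all 52 members in each comparison that added apigenin. ORC6 read 6.95, 6.81 and 6.79 on the arrays with both agents, 6.83, 6.71 and 6.81 with apigenin, 5.49, 5.49 and 5.8 with TNFα, and 5.41, 5.39 and 5.49 in controls. All 6 arrays with apigenin lay above all 6 without it. The difference of apigenin from control was 1.35 ± 0.12 (log2, SE), or 2.55-fold, with an adjusted p of 1.43e-05, and with TNFα present it was 1.26 ± 0.12, or 2.39-fold, with an adjusted p of 3.29e-05. It stayed called in every alternative run, leaving out any 1 array included.

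No other subunit of that complex was called in either of the 2 apigenin comparisons that share no array. ORC1, which binds ATP in the complex, read 5.91, 5.78 and 6.01 with both agents, 5.78, 5.78 and 6.01 with apigenin, 5.65, 5.13 and 5.69 with TNFα, and 5.5, 5.14 and 5.49 in controls. Its arrays with apigenin lay above those without it, but the difference of both agents from control (0.52, adjusted p = 0.0489) was lost on leaving out any 1 of the 6 arrays (adjusted p 0.0588 to 0.177), and that of apigenin from control was 0.48 with an adjusted p of 0.0754. ORC2 to ORC5 were called nowhere. Their differences between apigenin and control were -0.38 for ORC2, -0.49 for ORC3, -0.3 for ORC4 and 0.03 for ORC5, with adjusted p between 0.0565 and 0.934.

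CDT1, which brings the helicase to the origin and whose start region carries the octamer printed above, read 5.61, 5.62 and 5.32 with both agents, 5.62, 5.35 and 5.7 with apigenin, 4.99, 4.75 and 4.95 with TNFα, and 5.06, 4.62 and 4.98 in controls. The arrays with apigenin were again all above those without. Apigenin against control gave 0.67 ± 0.15 (1.59-fold, adjusted p = 0.00954), and both agents against TNFα gave 0.62 ± 0.15 (1.54-fold, adjusted p = 0.0166). The call against TNFα was lost without TNFα sample 2 (adjusted p = 0.0556) and without sample 1 or 2 of the cells given both agents (0.0753 and 0.0687). DTL, the substrate receptor of the ubiquitin ligase that marks CDT1 for destruction in S phase, went the same way as CDT1. DTL read 8.87, 8.98 and 9.2 with both agents, 8.52, 8.91 and 8.78 with apigenin, 8.48, 8.14 and 8.51 with TNFα, and 8.16, 7.76 and 8.21 in controls.

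The lowest DTL array with apigenin stood just above the highest one without it. Its differences were 0.69 ± 0.16 for apigenin against control (adjusted p = 0.0122), 0.64 ± 0.16 for both agents against TNFα (adjusted p = 0.0215) and 0.97 ± 0.16 for both agents against control (1.96-fold, adjusted p = 0.00124). The first of these was lost without apigenin sample 2 (0.61, adjusted p = 0.0557) or control sample 2 (0.55, adjusted p = 0.0501), and the next without TNFα sample 2 or without sample 2 or 3 of both agents (adjusted p 0.0552 to 0.0854). CDC6, the ATPase that works with CDT1, read 7.19, 7.35 and 7.39 with both agents, 7.06, 7.11 and 7.13 with apigenin, 7.18, 6.98 and 7.29 with TNFα, and 6.66, 6.84 and 7.18 in controls. It was called nowhere, and the arrays of apigenin and control cells overlapped: the difference was 0.21, with a 95% interval of -0.09 to 0.51.

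**Figure D3:**
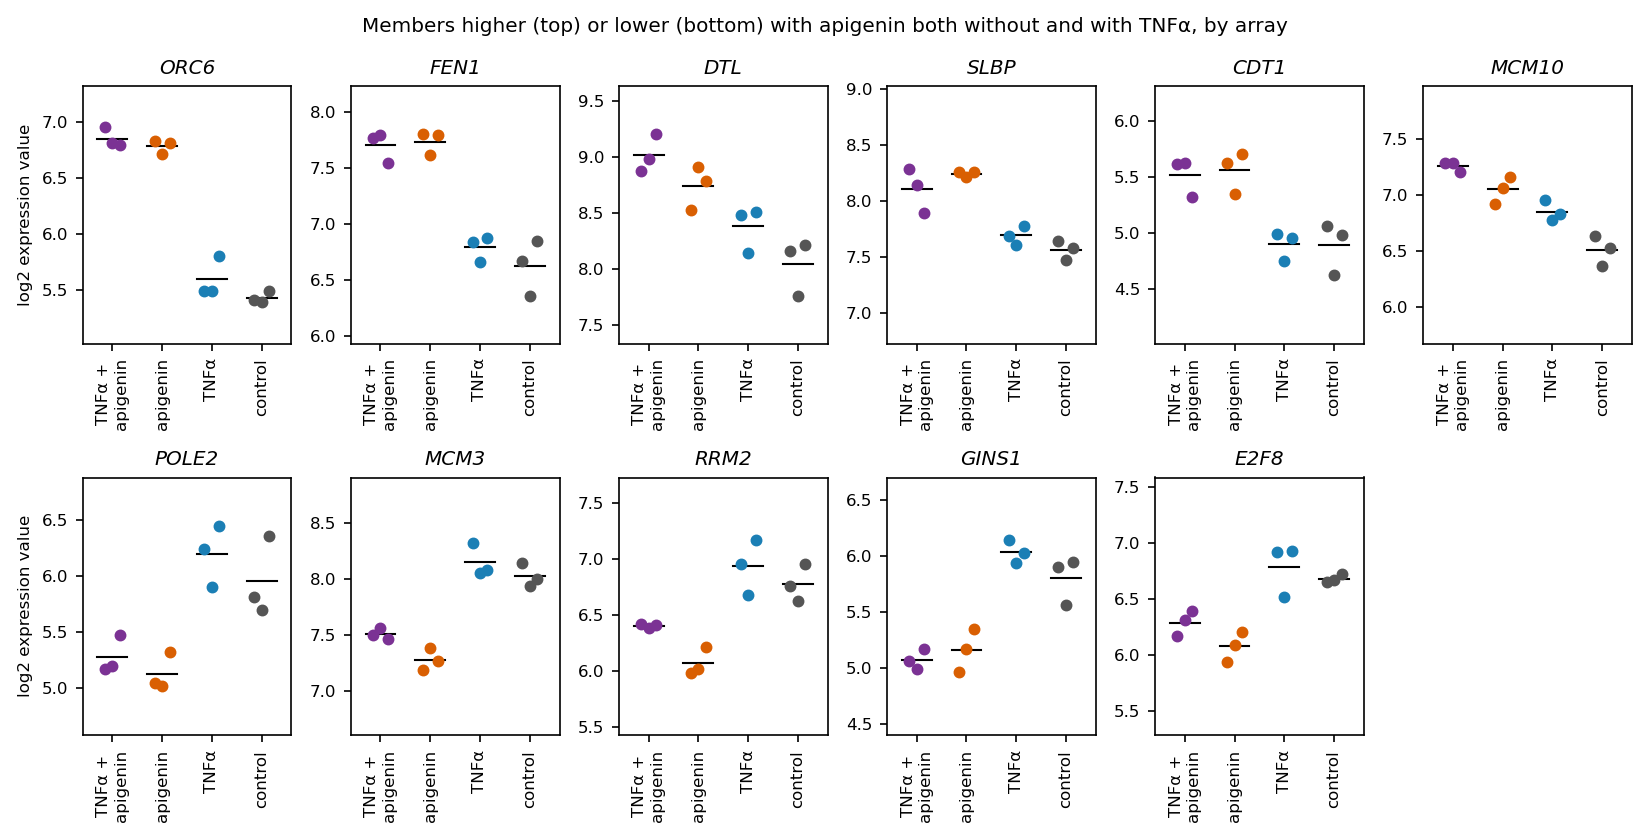
Log2 expression of the 11 members called the same way in both apigenin comparisons, on each of the 12 arrays, 1 panel per gene, with groups from left to right TNFα plus apigenin, apigenin, TNFα and control; points are single arrays and bars the means of 3. In the panels of ORC6 and FEN1 every array with apigenin lies above every array without it, and in those of POLE2 and GINS1 below.

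Of the 6 subunits of the MCM2-7 helicase ring, MCM3 alone was called. MCM3 read 7.5, 7.56 and 7.46 with both agents, 7.19, 7.38 and 7.27 with apigenin, 8.32, 8.05 and 8.08 with TNFα, and 8.14, 7.94 and 8.0 in controls. All 6 arrays with apigenin were below the other 6. It was lower by 1.68-fold with apigenin than in control (-0.74 ± 0.11, adjusted p = 0.000917), by 1.56-fold with both agents than with TNFα (-0.64 ± 0.11, adjusted p = 0.00291) and by 1.43-fold with both agents than in control (-0.52 ± 0.11, adjusted p = 0.00878). No call of MCM3 was lost on leaving out a single array.

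MCM2 and MCM7 belong to the same ring. MCM2 read 6.22, 6.29 and 6.17 with both agents, 6.19, 5.88 and 6.12 with apigenin, 6.37, 6.09 and 6.12 with TNFα, and 5.99, 6.05 and 6.15 in controls. Apigenin and control had the same mean of 6.06, and the 95% interval of the difference was -0.26 to 0.26. MCM7 read 7.1, 7.07 and 7.04 with both agents, 7.34, 7.13 and 7.26 with apigenin, 7.18, 7.0 and 6.97 with TNFα, and 7.07, 6.88 and 6.92 in controls. Its apigenin arrays were narrowly above the controls (0.29, interval 0.05 to 0.53, adjusted p = 0.132), with no such gap in the presence of TNFα (0.02, interval -0.22 to 0.26). MCM4, MCM5 and MCM6 differed from control by 0.03, 0.24 and -0.33 with apigenin, none of them called. That MCM3 differed from the other subunits in its response was not tested.

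The factors that switch the helicase on were divided. MCM10, which is needed to activate the helicase, read 7.28, 7.28 and 7.2 with both agents, 6.92, 7.06 and 7.16 with apigenin, 6.95, 6.77 and 6.83 with TNFα, and 6.63, 6.36 and 6.52 in controls. It was higher in apigenin than in control cells (0.54 ± 0.11, 1.46-fold, adjusted p = 0.00699) and highest in cells given both agents, which stood 1.68-fold above control (0.75 ± 0.11, adjusted p = 0.000738). Between both agents and TNFα the difference of 0.40 passed (adjusted p = 0.0404) but was lost on leaving out any 1 of the 6 arrays (0.0615 to 0.125). The lowest apigenin array lay below the highest TNFα array.

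GINS1 and GINS3 are 2 of the 4 subunits of 1 complex, GINS, which joins CDC45 and the MCM ring in the working helicase. GINS1 read 5.06, 4.99 and 5.17 with both agents, 4.96, 5.17 and 5.35 with apigenin, 6.14, 5.94 and 6.03 with TNFα, and 5.9, 5.56 and 5.95 in controls. It was lower with apigenin than in control (-0.64 ± 0.14, adjusted p = 0.00736) and lower with both agents than with TNFα by 1.95-fold (-0.96 ± 0.14, adjusted p = 0.00064). GINS3 read 5.87, 5.96 and 5.97 with both agents, 5.48, 5.25 and 5.44 with apigenin, 5.16, 4.96 and 5.21 with TNFα, and 4.94, 4.89 and 5.45 in controls. Only the cells given both agents stood clear of all other arrays: GINS3 was higher there than with TNFα (0.82 ± 0.15, 1.77-fold, adjusted p = 0.00304) and than in control (0.84 ± 0.15, 1.79-fold, adjusted p = 0.00191). Apigenin against control gave 0.30 (interval -0.02 to 0.61), both agents against apigenin 0.54 (adjusted p = 0.324), and the interaction 0.52 (adjusted p = 0.999). GINS2 and GINS4 differed from control by -0.19 and -0.26 with apigenin, and CDC45 by -0.48 (adjusted p = 0.0526), none of them called.

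At the fork, each call among the 9 polymerase and primase subunits of the 52 was a lower level with apigenin added. POLE2, the second subunit of polymerase epsilon, which copies the leading strand, read 5.17, 5.19 and 5.47 with both agents, 5.04, 5.01 and 5.32 with apigenin, 6.24, 5.9 and 6.44 with TNFα, and 5.81, 5.69 and 6.35 in controls. All arrays with apigenin were below all arrays without it. It was lower than in control by 1.77-fold with apigenin (-0.83 ± 0.19, adjusted p = 0.0101), and lower than with TNFα by 1.89-fold with both agents (-0.92 ± 0.19, adjusted p = 0.00638). The catalytic subunit POLE differed by 0.13 between apigenin and control, and POLD1, POLD2 and POLD3 of polymerase delta by 0.08, 0.27 and 0.10, none of them called.

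PRIM1, the catalytic subunit of primase, which lays down the RNA primers, read 6.27, 6.21 and 6.19 with both agents, 5.96, 5.72 and 5.99 with apigenin, 6.64, 6.51 and 6.61 with TNFα, and 6.36, 6.49 and 6.78 in controls. It was lower with apigenin than in control (-0.65 ± 0.13, 1.57-fold, adjusted p = 0.00424), and with both agents against TNFα the difference was -0.37 (adjusted p = 0.092). PRIM2, its partner subunit, read 7.01, 6.89 and 7.01 with both agents, 6.72, 6.63 and 6.74 with apigenin, 6.78, 6.98 and 6.98 with TNFα, and 6.99, 7.01 and 7.18 in controls. The call for apigenin against control (-0.36, adjusted p = 0.0495) was lost on leaving out any 1 of the 6 arrays (0.0744 to 0.157), and with TNFα present the difference was 0.06. POLA2, the accessory subunit of polymerase alpha, read 3.07, 3.18 and 3.35 with both agents, 2.77, 2.99 and 3.09 with apigenin, 4.05, 3.78 and 3.98 with TNFα, and 3.41, 3.14 and 3.85 in controls.

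POLA2 was called only for both agents against TNFα, where it was lower by 1.66-fold (-0.73 ± 0.17, adjusted p = 0.0131). That call was lost without TNFα sample 1 (-0.68, adjusted p = 0.0599) or without sample 1 of both agents (-0.67, adjusted p = 0.0645). Apigenin against control gave -0.52 (adjusted p = 0.0656). POLA1, the catalytic subunit, differed by -0.01 between apigenin and control.

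Of the 9 genes for the clamp, the clamp loader and the single-strand binding protein RPA, RFC5 was the one called. RFC5, a clamp loader subunit, read 7.31, 7.29 and 7.4 with both agents, 7.14, 7.21 and 7.44 with apigenin, 7.03, 6.85 and 7.24 with TNFα, and 6.75, 6.84 and 6.94 in controls. It was higher with both agents than in control (0.49 ± 0.13, adjusted p = 0.0214) and with apigenin than in control (0.42 ± 0.13, adjusted p = 0.0498). The first was lost in 4 of the 6 fits that leave out 1 array (without sample 1 or 3 of both agents, or control sample 1 or 2, up to an adjusted p of 0.0838), the second in all 6 (0.0614 to 0.18). PCNA, the sliding clamp and a common proliferation marker, read 7.68, 7.85 and 7.95 with both agents, 7.63, 7.66 and 7.84 with apigenin, 8.12, 8.02 and 8.34 with TNFα, and 8.0, 8.18 and 8.1 in controls. Its arrays with apigenin were all below those without, but the differences, -0.38 (interval -0.65 to -0.12, adjusted p = 0.0655) and with TNFα present -0.33 (interval -0.60 to -0.06, adjusted p = 0.122), were not called. RFC1 to RFC4 and the 3 RPA genes lay between -0.07 and 0.28 with apigenin against control.

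FEN1, the nuclease that trims the flaps of Okazaki fragments, had the second largest rise with apigenin. FEN1 read 7.77, 7.79 and 7.54 with both agents, 7.8, 7.61 and 7.79 with apigenin, 6.84, 6.66 and 6.87 with TNFα, and 6.67, 6.36 and 6.85 in controls. The 6 arrays with apigenin were all above the other 6, by at least 0.67. It was higher by 2.15-fold with apigenin than in control (1.11 ± 0.14, adjusted p = 0.000212), by 1.88-fold with both agents than with TNFα (0.91 ± 0.14, adjusted p = 0.00109) and by 2.11-fold with both agents than in control (1.07 ± 0.14, adjusted p = 0.00022), and stayed called in every alternative run. LIG1, the ligase that seals the trimmed fragments, differed from control by 0.19 with apigenin and was called nowhere.

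Among the 4 genes of nucleotide supply, RRM2 was called. RRM2, the small subunit of ribonucleotide reductase, which makes deoxynucleotides, read 6.42, 6.38 and 6.41 with both agents, 5.98, 6.02 and 6.21 with apigenin, 6.95, 6.68 and 7.17 with TNFα, and 6.76, 6.62 and 6.95 in controls. Every array with apigenin was below every array without it. It was lower with apigenin than in control by 1.63-fold (-0.71 ± 0.14, adjusted p = 0.00441) and with both agents than with TNFα by 1.45-fold (-0.53 ± 0.14, adjusted p = 0.0251). The second call was lost in 5 of the 6 fits that leave out 1 array, all but the one without TNFα sample 2 (adjusted p 0.065 to 0.107). RRM1, TYMS and TK1, for the large subunit, thymidylate synthase and thymidine kinase, were called nowhere. TYMS had group means of 8.61 with both agents, 8.66 with apigenin, 8.61 with TNFα and 8.66 in control.

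SLBP binds the stem-loop at the end of replication-dependent histone mRNAs, and its protein is known to be present mainly in S phase. SLBP read 8.28, 8.14 and 7.89 with both agents, 8.26, 8.21 and 8.26 with apigenin, 7.69, 7.61 and 7.78 with TNFα, and 7.64, 7.47 and 7.58 in controls. The arrays with apigenin were all above those without it. It was higher with apigenin than in control by 1.61-fold (0.68 ± 0.12, adjusted p = 0.00222) and with both agents than in control by 1.46-fold (0.55 ± 0.12, adjusted p = 0.00812). With both agents against TNFα the call (0.41, adjusted p = 0.0442) was lost in 5 of 6 fits that leave out 1 array, all but the one without sample 3 of both agents (adjusted p 0.0618 to 0.191). UHRF1 and the histone chaperone genes CHAF1A and CHAF1B were called nowhere.

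E2F8, a repressor of the E2F family, read 6.17, 6.31 and 6.39 with both agents, 5.94, 6.09 and 6.21 with apigenin, 6.92, 6.52 and 6.93 with TNFα, and 6.65, 6.67 and 6.72 in controls. Arrays with apigenin were all below those without. It was lower with apigenin than in control by 1.51-fold (-0.60 ± 0.13, adjusted p = 0.00935) and with both agents than with TNFα by 1.42-fold (-0.50 ± 0.13, adjusted p = 0.0274). The second call held in 2 of the 6 fits that leave out 1 array and was lost without TNFα sample 1 or 3 or without sample 1 or 2 of both agents (adjusted p 0.0701 to 0.12). E2F1, an activator of S phase genes, read 5.57, 5.7 and 5.88 with both agents, 5.94, 5.86 and 6.05 with apigenin, 5.99, 6.14 and 6.03 with TNFα, and 5.83, 5.89 and 6.12 in controls. Apigenin and control arrays of E2F1 overlapped, with a difference of 0.01 (interval -0.26 to 0.27). With TNFα present, the arrays of both agents lay below those of TNFα alone, with a difference of -0.34 (interval -0.60 to -0.07, adjusted p = 0.112), which was not called. E2F2 was called nowhere.

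**Figure D4:**
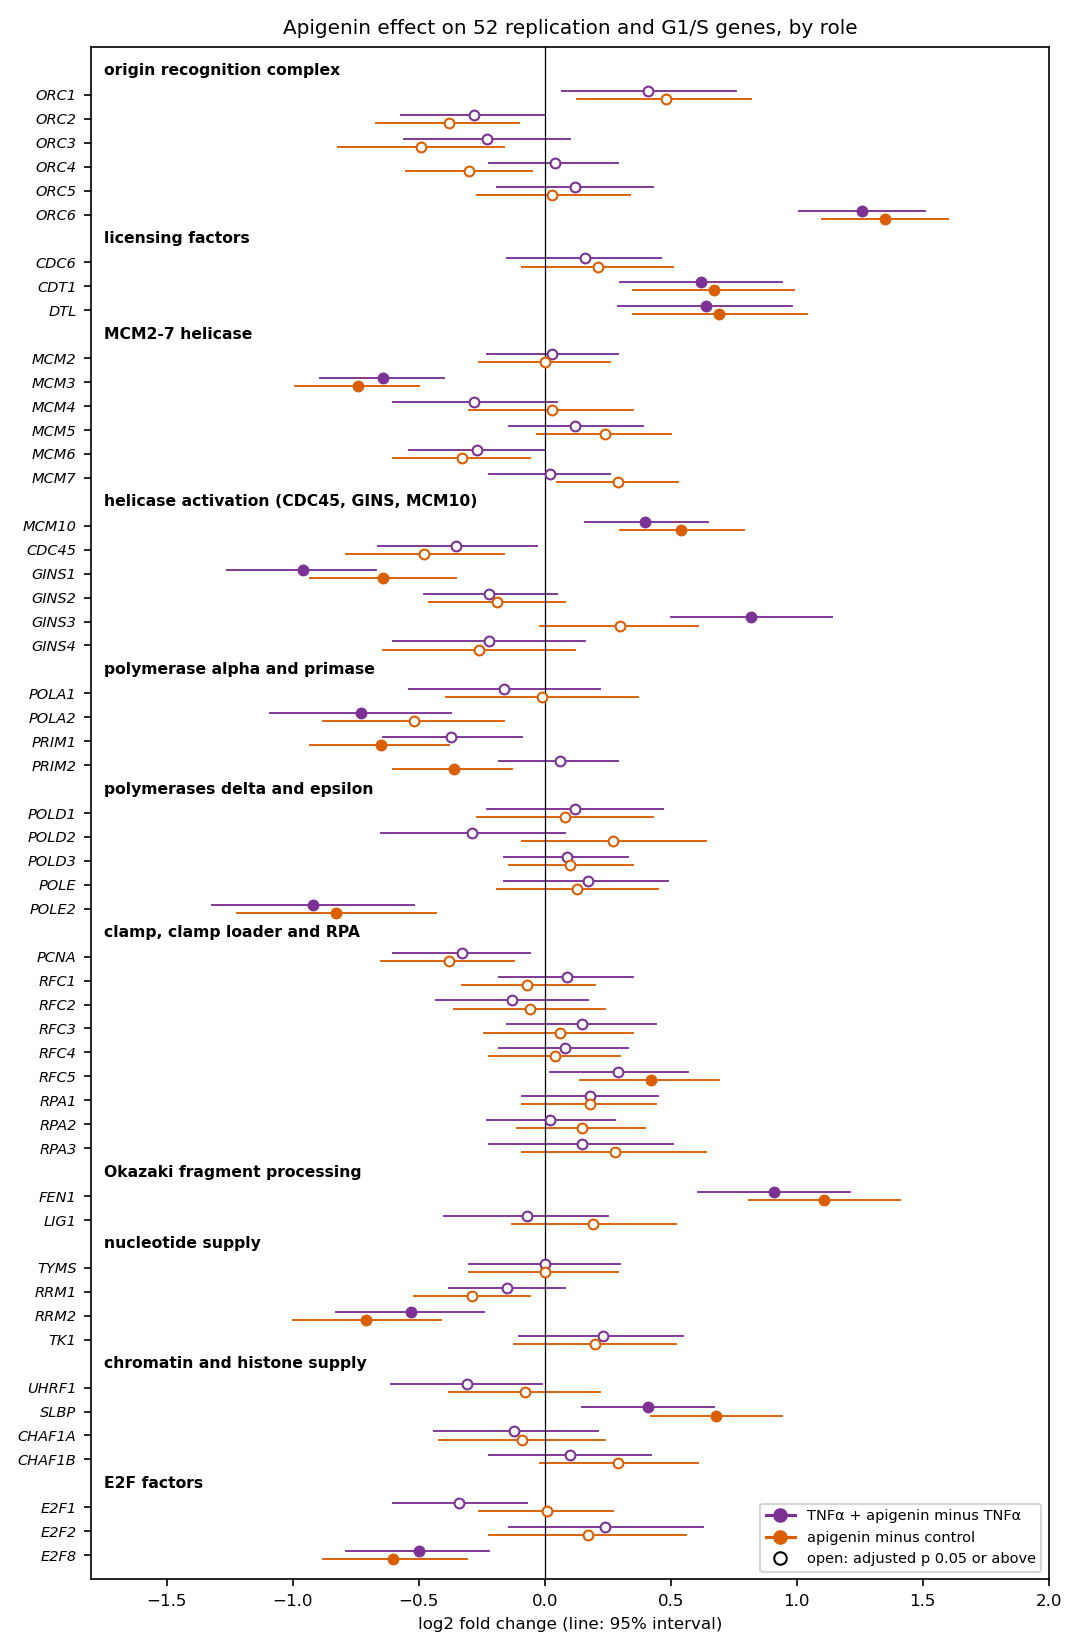
Log2 fold change of each of the 52 genes, grouped by role, for apigenin minus control and for TNFα plus apigenin minus TNFα, with 95% intervals. Within the licensing, helicase and fork groups, called genes such as ORC6, MCM3 and POLE2 stand beside members of the same complex that were not called. Some intervals of the latter include 0, and others do not. For apigenin minus control they were -0.27 to 0.34 for ORC5, 0.13 to 0.82 for ORC1 and -0.82 to -0.16 for ORC3.

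Beside single arrays, other alternatives ended calls in several of these genes. With the small nucleolar RNA median as a covariate, the calls of apigenin against control were lost in POLE2 (-0.60, adjusted p = 0.113), RRM2 (-0.51, adjusted p = 0.0534), GINS1 (-0.54, adjusted p = 0.0739), E2F8 (-0.40, adjusted p = 0.109) and PRIM2 (-0.38, adjusted p = 0.14). For both agents against TNFα, that covariate left ORC6, FEN1, DTL and GINS3 as the higher calls and GINS1 as the lower one. MCM3 there had -0.58 with an adjusted p of 0.051. Without the 4 samples numbered 3, the calls of apigenin against control were lost in CDT1 (0.64, adjusted p = 0.0687), DTL (0.75, adjusted p = 0.0538), MCM10 (0.50, adjusted p = 0.0844), RFC5 and PRIM2, and that of MCM3 for both agents against control (-0.51, adjusted p = 0.078). Fitting only the groups compared ended the calls of PRIM2 (adjusted p = 0.118) and RFC5 (0.0974) for apigenin against control, and of MCM10 (0.0603), E2F8 (0.0671) and SLBP (0.099) for both agents against TNFα. Quantile normalization ended the call of SLBP for both agents against TNFα (adjusted p = 0.0631) and of ORC1 for both agents against control (0.0515), and so did omitting the filter for ORC1 (0.0506).

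A second list was drawn up as other genes of replication, S phase and the G1/S step, and 80 of its 87 genes were measured. It is not confined to those phases: CCNA2, for example, also acts in G2. With apigenin against control 7 were higher and 14 lower (26.2%, where 11.4% of all genes were called), with a median of -0.05. With both agents against TNFα 6 were higher and 5 lower (13.8%, close to the 10.1% of all genes), with a median of 0.00. CCNE1, the cyclin that drives G1 cells into S phase, read 6.4, 6.25 and 6.57 with both agents, 6.5, 6.13 and 7.0 with apigenin, 5.95, 5.55 and 6.17 with TNFα, and 5.5, 4.92 and 5.7 in controls. It was 2.25-fold higher with apigenin than in control (1.17 ± 0.24, adjusted p = 0.00528), and with both agents against TNFα the difference was 0.52 (adjusted p = 0.221). CDKN1A, which encodes the kinase inhibitor p21, read 5.45, 5.68 and 5.45 with both agents, 5.55, 5.59 and 5.48 with apigenin, 4.92, 4.82 and 4.41 with TNFα, and 4.26, 4.32 and 4.55 in controls. All its arrays with apigenin exceeded those without, by 2.24-fold for apigenin over control (1.16 ± 0.14, adjusted p = 0.00018) and 1.76-fold for both agents over TNFα (0.81 ± 0.14, adjusted p = 0.00267).

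The other genes of that list that were higher with apigenin than in control were CDKN1C, a further kinase inhibitor (1.29), CHTF8, part of an alternative clamp loader (0.83), CDC25A, a phosphatase that activates cyclin-dependent kinases (0.66), TOP1, a topoisomerase (0.54), and POLE3, a small polymerase epsilon subunit (0.47). The 8 with the largest falls were TOP2A at -1.37, RBL2 at -1.08, TFDP2 at -0.80, ASF1A at -0.79, CCNA2 at -0.76, RNASEH2B at -0.75, RRM2B at -0.75 and CDC25B at -0.74. TOP2A untangles replicated chromosomes, RBL2 is a retinoblastoma relative, TFDP2 is a partner of E2F factors and CCNA2 encodes the cyclin of S and G2. TOP2A read 8.87, 8.86 and 8.9 with both agents, 8.81, 8.96 and 8.84 with apigenin, 9.85, 9.83 and 9.86 with TNFα, and 10.17, 10.3 and 10.24 in controls. With apigenin it was below control on all arrays (0.388 of the control level, adjusted p = 3.34e-06). CDK6, the G1 kinase, was the only gene of this list called for both agents against apigenin (0.86, adjusted p = 0.0358), and was named after its values were seen. CDK6 was lower with apigenin than in control (-0.61, adjusted p = 0.018). TNFα against control gave 0.63 (adjusted p = 0.0726), and the interaction was 0.23 (adjusted p = 0.999).

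Genes of G2 and mitosis moved on one side. Of 30 measured, 23 were lower and 1 higher with apigenin than in control, where 6.83% of all genes were lower and 4.55% higher. Their median was -0.81, and among the 52 replication genes 7 were lower and 7 higher. With both agents against TNFα, 22 were lower and none higher, with a median of -0.66 (all genes: 5.92% lower, 4.21% higher). With TNFα alone against control, 3 of the 30 were lower (10.0%, against 0.219% of all genes). PLK1, a mitotic kinase, read 5.12, 5.32 and 5.49 with both agents, 5.39, 5.64 and 5.6 with apigenin, 7.48, 7.48 and 7.64 with TNFα, and 7.86, 7.53 and 7.65 in controls. Its difference between apigenin and control was -2.14 ± 0.13 (adjusted p = 1.05e-06), larger in size than that of any of the 52. BIRC5, survivin, was the one that was higher (0.40, adjusted p = 0.0339). No test set the lists against each other, and the lists other than the members were counted only in the fit reported. For apigenin against control, the split among the members depended on the fit. It was 14 lower and 8 higher after quantile normalization, and 2 lower and 8 higher with the small nucleolar RNA median as a covariate.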

How the data were processed

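RNA of 12 MDA-MB-231 samples was hybridised to Affymetrix whole-transcript arrays. The deposited values are log2 expression per probe set. Per the submitters' processing notes, the authors used Affymetrix Expression Console. Its version, algorithm and settings, and the genome build, were not given in the sources used here. The table held 53617 probe sets, of which 23871 had 1 gene symbol, 1842 several and 27904 none in the platform annotation. The filter asked for a value at or above the 25th percentile of the array (1.597 to 1.645) on 3 or more arrays, which left 21895 probe sets and 20572 genes, each read from its probe set with the highest mean. Array medians were 2.091 to 2.159. The number of arrays limits the precision, and groups of 3 against 3 cannot go below an exact p of 0.1, so the model across all genes was used.

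One limma fit (3.58.1 in R 4.3.3, lmFit and eBayes) over 4 group means with 8 residual degrees of freedom gave 6 comparisons, each with Benjamini-Hochberg adjustment over 20572 genes, calls below 0.05 and moderated 95% intervals. Errors beside differences are standard errors. Alternatives were quantile normalization, no filter, the mean of a gene's probe sets, a trended robust prior, only the groups compared, the replicate number as a block, each array left out, the 4 samples numbered 3 left out, and, chosen after seeing the data, the small nucleolar RNA median as a covariate. Replicate numbers come from the labels. They were not taken to pair samples, since the labels state no pairing. Correlations of same-numbered deviations, given below, ran from 0.018 to 0.464.

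The members and lists were chosen with earlier results of these data known. All 52 members may be named, with values on every array for those called at least once and for MCM2, MCM7, PCNA, CDC6, CDT1, E2F1 and CCNE1. Genes of the other 2 lists are named when called for apigenin against control, at most 8 in each direction. The promoter motifs were searched on both strands of RefSeq windows (GRCh38.p14).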

Additional observations from a re-analysis of the deposited data

How the results depend on the processing

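Over the refits of single called members, the call was kept in 455 and lost in 91. No direction turned, but many of these refits could not have turned it. The arrays of the groups compared did not overlap for any call, so leaving out arrays cannot reverse the difference. The replicate block, the prior, the filter and the restriction to the groups compared leave the difference itself unchanged. Each member has 1 probe set, so averaging probe sets does not change it either. Quantile normalization gave 22 called members for apigenin against control (8 higher, 14 lower; 14 in the fit reported) and 20 for both agents against control (8 higher, 12 lower; 12 reported), with a members' median of -0.11 for both agents against control. The causes were not tested. With the small nucleolar RNA median as a covariate, 5 members were called for both agents against TNFα (4 higher, 1 lower; 13 reported) and 10 for apigenin against control (8 higher, 2 lower), where GINS1, POLE2, PRIM2, RRM2 and E2F8 were no longer called. Leaving out the 4 samples numbered 3 gave 9 for apigenin against control (3 higher, 6 lower), with fewer samples. Leaving out 1 array at a time gave 11 to 14 for apigenin against control, 7 to 10 for both agents against TNFα (8 without TNFα sample 1, and 7 without sample 1 or sample 2 of both agents) and 8 to 11 for both agents against control, and 0 in the other 3 comparisons. Calls over all genes fell in these fits too. They came to 7.46 to 9.97%, 5.79 to 10.0% and 8.41 to 11.7% in the first 3 comparisons (11.4%, 10.1% and 12.5% in the fit reported). The members' median then lay between -0.02 and 0.1, between -0.02 and 0.05, and between -0.09 and 0.08 in those comparisons, the -0.09 without control sample 2. It was 0.04 to 0.18 for TNFα against control, 0.04 to 0.12 for both agents against apigenin and -0.09 to 0.05 for the interaction. In every fit that leaves out an array and every other alternative, 5 of 14 calls held for apigenin against control (ORC6, FEN1, MCM3, PRIM1 and SLBP), 4 of 13 for both agents against TNFα (ORC6, FEN1, GINS1 and GINS3) and 7 of 12 for both agents against control.

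With the replicate number as a block, 21 members were called for apigenin against control (8 higher, 13 lower), 15 for both agents against TNFα (8 and 7), 17 for both agents against control (11 and 6) and 0 in the other 3, while in the first 3 of these 3501, 3315 and 3819 of all 20572 genes were called (2342, 2085 and 2576 reported). The numbers were not taken as pairing: deviations of samples numbered 1 correlated at 0.018 to 0.102, those numbered 2 at 0.201 to 0.376 and those numbered 3 at 0.302 to 0.464, against -0.442 to 0.102 for different numbers, and 12 of 12 arrays correlated best with their own number, a hint from the data and not the design. Over all genes, the block gave 632 calls for TNFα against control and 100 for both agents against apigenin (205 and 43 reported), and 1363 and 893 genes were called for apigenin against control and for both agents against TNFα with the small nucleolar RNA covariate (2342 and 2085 reported). With only the groups compared, 73 genes were called for TNFα against control. Without the samples numbered 3, 1505, 1288, 85 and 15 were called for apigenin against control, both agents against TNFα, TNFα against control and both agents against apigenin.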
